A study of Mus musculus with 18 samples.

Results

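Gene expression was compared between the normal livers of mice with a global knockout of the miR-181ab1 cluster (GKO) and those of wild type (WT) mice. These 6 livers, 3 per genotype, were selected from the 18 samples of the series as the untreated liver samples of both genotypes. All 6 came from C57BL/6 mice aged 36 weeks that had received no carcinogen. Of 54838 genes in the table, 13099 had a mean of at least 0.5 TPM (transcript abundance scaled for gene length and library size) over these 6 livers and were tested. GKO mice lack Mir181a-1 and Mir181b-1 in every cell type from conception, so the comparison cannot assign a difference to one cell type of the liver. The study housed WT and knockout littermates together in its tumour experiment, but the labels do not say whether these 6 mice were littermates, and p-values therefore measure only the spread between these samples. The other 12 samples were tumours and non-tumour livers from mice of the same genotypes, strain and age that received the carcinogen diethylnitrosamine (DEN) once, at 25 mg/kg on postnatal day 12.

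MicroRNAs are short RNAs that guide a silencing complex to messenger RNAs, mainly by pairing of the seed near their 5′ end with sites in 3′ untranslated regions (3′ UTRs). The miR-181 family is best known for its part in lymphocyte development, and it is also made in hepatocytes and in vessel walls. The liver is built mainly of hepatocytes, with sinusoidal endothelial cells, stellate cells, Kupffer cells, bile duct cells and a mesothelial surface contributing smaller amounts of RNA. The mature strands lost with the deleted cluster and those of the loci that remain are shown first, since both carry one seed. Sequences are from RefSeq (GRCm38.p6), with bases 2 to 8 of each strand in capitals.
miR-181a-5p: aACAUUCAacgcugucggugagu
miR-181b-5p: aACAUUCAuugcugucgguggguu
miR-181c-5p: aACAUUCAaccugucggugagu
miR-181d-5p: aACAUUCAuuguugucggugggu
miR-181a-1-3p: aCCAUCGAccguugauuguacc
miR-181b-1-3p: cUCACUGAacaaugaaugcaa
The deleted cluster encodes miR-181a-5p at chr1:137966468-137966490 and miR-181b-5p at chr1:137966650-137966673, on the plus strand. Mir181a-2 and Mir181b-2, at chr2:38852741-38852763 and chr2:38853845-38853868, encode 5p strands of identical sequence, and Mir181c and Mir181d lie on chromosome 8. All 4 of the 5p strands share the seed ACAUUCA, so the GKO liver retains genes for this seed. The 3p strands of the deleted pair have other seeds.

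The deletion could not be read from these libraries. All 6 miR-181 genes were at 0 TPM and 0 recovered reads in each of the 6 normal livers, which allows up to 3 reads per library, and the 12 DEN-treated samples held 1 read over these genes, on Mir181a-1. Libraries of the normal livers held 11925055 to 19178371 reads in WT and 14893893 to 15848040 in GKO. Genes above 0 numbered 16082 to 19306 in WT and 16634 to 19419 in GKO, and WT normal liver 2 and GKO normal liver 3 had the fewest. Over the genes tested, the 6 livers correlated at Pearson's r of 0.946 to 0.973 within a genotype and 0.953 to 0.981 between genotypes. The median log2(TPM + 1) was 2.62 in GKO normal liver 1 and 2.31 to 2.42 in the other 5. Hepatocyte markers, the check of the tissue label, were abundant in all 6 livers and summed to 78033 to 87210 TPM in WT and 72699 to 96361 TPM in GKO. The labels of the normal livers give no sex; Ddx3y, a gene of the Y chromosome, was at 17.9 to 31.7 TPM in all 6 livers.

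No gene passed an adjusted p of 0.05 in limma (0% of 13099 genes, smallest adjusted p 0.264). At an unadjusted p under 0.05, 415 genes (3.17%) were higher and 104 (0.794%) lower in GKO livers. Without overlap between the 3 WT and the 3 GKO values, 816 genes (6.23%) were higher and 226 (1.73%) lower. The median difference over all genes was 0.064 on the log2(TPM + 1) scale, on which all differences below are given, GKO minus WT. An exact permutation test of 3 against 3 samples cannot go below p = 0.1. Voom on recovered reads also called 0 genes, with 372 higher and 140 lower at an unadjusted p under 0.05. The lean towards higher values depended on the scaling, since centring every liver on the same median gave 294 higher and 210 lower genes and quantile normalization 315 and 198. Without overlap, centring gave 517 higher (3.95%) and 575 lower genes (4.39%), so that lean turned. It also depended on single livers, with 256 higher genes without WT normal liver 1, 674 without GKO normal liver 3, and 167 lower genes without GKO normal liver 1.

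Of the 12 higher genes with the smallest p whose groups did not overlap, 11 were protein-coding, and of the 12 such lower genes 2 were, both metallothioneins. Fam167b (chr4:129576815-129578549), a gene of little-studied function, was at 8.91, 7.63 and 7.99 TPM in WT livers 1, 2 and 3 and at 28.7, 28.2 and 22.5 TPM in GKO livers. Every GKO liver was above every WT liver for Fam167b, and the difference was 1.58 (SE 0.17, limma adjusted p 0.264, n = 3 each), with mean TPM 3.24 times the WT mean. Msln (chr17:25748613-25754378), which encodes mesothelin, a surface protein of mesothelial cells, was at 0.697, 0.106 and 0 TPM in WT and 7.52, 5.11 and 4.001 TPM in GKO livers. These TPM values rest on 14, 3 and 0 reads in WT and 188, 126 and 104 reads in GKO livers, and the Msln difference was 2.37 (SE 0.29, adjusted p 0.313). Fam167b and Msln were the only genes to pass when the test was restricted to protein-coding genes, a choice made after the data were seen (adjusted p 0.0422 for both).

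Several of the next genes are known from the lining of liver sinusoids. Clec4g, which encodes the sinusoidal lectin LSECtin, was at 12.9, 13.8 and 8.99 TPM in WT and 26.7, 27.6 and 26.9 TPM in GKO livers (difference 1.14, SE 0.19, adjusted p 0.668). Plvap, a component of the diaphragms of fenestrated vessels, was at 26.5, 26.0 and 25.7 TPM in WT and 56.1, 47.5 and 46.2 TPM in GKO livers (0.91, SE 0.15). Dnase1l3, which encodes a secreted nuclease, was at 7.38, 4.06 and 4.24 TPM in WT and 12.3, 13.9 and 14.4 TPM in GKO livers (1.26, SE 0.23). In each of these genes every GKO liver was above every WT liver, and the WT values of Plvap differed by less than 1 TPM. The abundant secreted protein genes Igfbp7 and Spp1 showed the same separation. Igfbp7, which encodes an insulin-like growth factor binding protein of vessel walls, was at 73.1, 59.0 and 97.9 TPM in WT and 171, 186 and 169.9 TPM in GKO livers (1.21, SE 0.21). Spp1, which encodes osteopontin and is made by bile duct cells and some macrophages, was at 35.3, 27.0 and 40.3 TPM in WT and 81.9, 69.0 and 77.8 TPM in GKO livers (1.15, SE 0.19).

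The remaining protein-coding genes of this set had low WT values. Tagln2, which encodes the actin-binding transgelin 2, was at 4.74, 4.76 and 6.03 TPM in WT and 13.4, 15.6 and 11.1 TPM in GKO livers. Crip1, which encodes a small zinc-binding LIM protein, was at 2.00, 2.91 and 3.40 TPM in WT and 7.78, 8.05 and 6.60 TPM in GKO livers. Igfbp6, which encodes a binding protein for insulin-like growth factor 2, was at 2.38, 2.53 and 0 TPM in WT and 10.8, 14.3 and 9.30 TPM in GKO livers. Nbl1, an antagonist of bone morphogenetic proteins, was at 0.0724, 0.387 and 0.188 TPM in WT and 2.05, 2.38 and 1.96 TPM in GKO livers. These rest on 1, 7 and 4 reads in WT and 34, 39 and 34 reads in GKO livers. The WT mean of Nbl1, 0.216 TPM, was below the filter of 0.5 TPM. Nbl1 was thus tested only through its GKO values, and its direction was largely set by the filter. The differences were 1.21 for Tagln2, 1.18 for Crip1, 2.43 for Igfbp6 and 1.37 for Nbl1 (limma adjusted p 0.668 to 0.799). The twelfth gene, the microRNA gene Mir8116, rested on 1 read in WT and 12 in GKO livers.

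**Figure D1:**
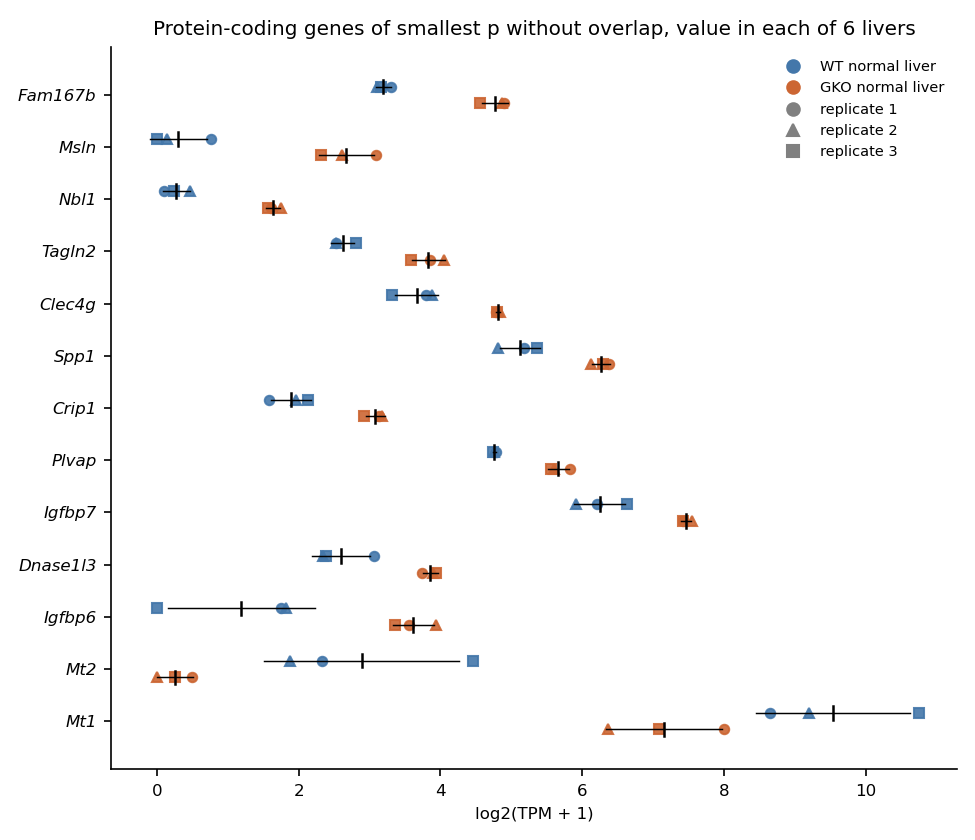
Levels of 11 protein-coding genes that were higher and 2 that were lower in GKO normal livers, by liver, on the log2(TPM + 1) scale. Each point is 1 liver (blue, WT; orange, GKO; the shape gives the replicate), the black tick is the mean and the line spans 1 SD either side (n = 3). The WT and GKO points do not overlap in any of these genes, which were selected for that, and the WT points of Mt1 and Mt2 spread most.

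Metallothionein genes, which encode small zinc- and copper-binding proteins, had the only protein-coding members among the 12 named genes with lower values. Mt1 (chr8:94179082-94180327) was at 402, 588 and 1716 TPM in WT and 255, 81.7 and 135 TPM in GKO livers, with a WT mean 5.74 times the GKO mean and a difference of −2.38 (SE 0.59, adjusted p 0.936). Mt2 (chr8:94172664-94173568) was at 4.01, 2.68 and 21.02 TPM in WT and 0.416, 0 and 0.2 TPM in GKO livers, from 16, 14 and 129 reads against 2, 0 and 1. The mean Mt2 level of WT livers was at least 14.9-fold higher than the level that 3 reads per library would give in GKO livers, and the fitted difference was −2.63 (SE 0.61, adjusted p 0.891). The GKO mean of Mt2, 0.205 TPM, was below the filter of 0.5 TPM, so Mt2 was tested only through its WT values. WT normal liver 3 was highest for both genes, and every WT liver was above every GKO liver. Mt1 and Mt2 are similar genes, and how reads that fit both were counted is not given in the sources used here. Their neighbouring promoters on chromosome 8 are shown because both are known to bind the metal-responsive factor MTF-1 through metal response elements. The pattern searched here was TGCNCNC, which allows any base at both N positions, and binding to its matches was not tested. Each window covers 250 bases before and 50 after the start that the RefSeq promoter table uses, 94179089 for Mt1 and 94172618 for Mt2, which differs from the gene starts of the annotation given above. The windows are on the plus strand of GRCm38.p6, with every match to this pattern on either strand in capitals.
Mt1, chr8:94178839-94179138: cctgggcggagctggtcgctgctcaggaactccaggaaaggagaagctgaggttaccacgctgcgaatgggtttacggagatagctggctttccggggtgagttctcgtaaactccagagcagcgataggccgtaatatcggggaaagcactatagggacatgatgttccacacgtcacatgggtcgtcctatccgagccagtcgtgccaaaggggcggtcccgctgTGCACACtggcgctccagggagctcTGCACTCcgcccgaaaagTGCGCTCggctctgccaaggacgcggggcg
Mt2, chr8:94172368-94172667: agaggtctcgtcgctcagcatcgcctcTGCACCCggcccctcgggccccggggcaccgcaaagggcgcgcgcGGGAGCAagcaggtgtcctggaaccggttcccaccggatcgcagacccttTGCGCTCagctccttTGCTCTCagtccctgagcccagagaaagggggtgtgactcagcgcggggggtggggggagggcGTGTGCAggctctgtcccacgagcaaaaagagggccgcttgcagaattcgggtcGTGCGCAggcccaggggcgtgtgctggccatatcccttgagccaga
The Mt1 window held 3 matches, all on the shown strand, and the Mt2 window 6 matches, 3 on each strand. At least 1 match was found in 51.0% of 32851 mouse promoters of this length, at least 3 in 7.10% and at least 6 in 0.225%. Of 17 tested genes of iron and metal handling, Mt1 and Mt2 were the 2 with lower values at an unadjusted p under 0.05 and the median was −0.16, beside 0.794% lower genes and a median of 0.064 over all genes. The median of this list turned to 0.12 without WT normal liver 3. Hamp, which encodes the iron hormone hepcidin, was at 9307, 10436 and 28675 TPM in WT and 6240.4, 5319 and 17735 TPM in GKO livers, with overlap (−0.75).

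The other 10 named genes with lower values were noncoding genes or pseudogenes supported by few reads. Mir7655 rested on 7 reads in all WT and 0 in all GKO livers, Gm19196 on 25 and 3, Gm13427 on 20 and 1, and 4930413G21Rik, the deepest of them, on 195 and 79. The GKO means of Mir7655 (0), Gm19196 (0.216) and Gm13427 (0.0514 TPM) were below the filter of 0.5 TPM. Those genes were tested only through their WT values, and their direction was largely set by the filter. Protein-coding genes made up 83.2% of all genes tested and 83.9% of the 415 higher genes, but 40.4% of the 104 lower genes.

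Markers of non-parenchymal cells were next compared list by list. Endothelial genes were higher in GKO livers, with 10 of 16 at an unadjusted p under 0.05 and 0 lower, beside 3.17% higher over all genes. Their median difference was 0.60, beside 0.064 over all genes, and 15 of 16 were above 0. Every GKO liver exceeded every WT liver in 12 of the 16, beside 6.23% over all genes. Summed over the list, these markers were at 79.6 to 83.1 TPM in WT and 125.7 to 166.0 TPM in GKO livers. In bulk tissue, more cells of a type and more RNA per cell cannot be told apart. None of the 16 passed at the adjusted p, and 2 were at an unadjusted p under 0.05 when all 18 samples shared 1 estimate of the spread. Centring on the median left 10 without overlap, beside 3.95% over all genes, and a median of 0.51.

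Within the endothelial list, genes typical of liver sinusoids are described first. Oit3, a secreted protein gene of liver sinusoidal cells, was at 4.97, 3.87 and 5.601 TPM in WT and 9.57, 9.12 and 9.99 TPM in GKO livers (0.87). Gpr182, a scavenging chemokine receptor of the sinusoids, was at 5.59, 4.98 and 5.06 TPM in WT and 8.76, 10.9 and 9.09 TPM in GKO livers (0.76). Fcgr2b, an inhibitory receptor for immune complexes, was at 6.36, 6.28 and 4.05 TPM in WT and 11.2, 9.34 and 11.2 TPM in GKO livers (0.84). In each of these 3 genes the values of every GKO liver were above those of every WT liver. Kdr, the main receptor for vascular endothelial growth factor, was at 2.76, 1.83 and 2.47 TPM in WT and 3.73, 4.51 and 5.14 TPM in GKO livers (0.70). Eng, a co-receptor of transforming growth factor beta, was at 24.0, 26.9 and 18.9 TPM in WT and 54.9, 39.6 and 29.8 TPM in GKO livers (0.78). The scavenger receptor genes Mrc1 and Stab1 differed by 0.65 and 0.63, and the receptor genes Tek and Flt4 by 0.56 and 0.54, without overlap. The genotypes overlapped in the junction genes Cdh5 (0.53) and Pecam1 (0.38), which mark all endothelial cells, and in the scavenger receptor gene Stab2 (0.40). Lyve1, a hyaluronan receptor of lymphatic vessels and sinusoids, was at 2.98, 2.35 and 6.37 TPM in WT and 6.79, 2.93 and 1.81 TPM in GKO livers and overlapped (−0.063), and its sign turned without WT normal liver 3 (0.27), GKO normal liver 2 (0.021) or GKO normal liver 3 (0.26).

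Fibroblast and stellate cell genes also had higher values in GKO livers. Of 18 tested members of the list, 9 were higher at an unadjusted p under 0.05 and 0 lower, 10 were higher without overlap, and all 18 were above 0 with a median of 0.64. Over all genes 3.17% were higher at this p, 6.23% were higher without overlap and 62.4% were above 0. The list summed to 57.7 to 73.5 TPM in WT and 95.7 to 124.0 TPM in GKO livers. With all 18 samples in 1 fit, 4 of the members were higher at an unadjusted p under 0.05, and with median centring 9 were without overlap, beside 3.95% over all genes, at a median of 0.54. Dcn, which encodes the matrix proteoglycan decorin, was at 29.995, 28.7 and 29.7 TPM in WT and 59.4, 44.8 and 46.3 TPM in GKO livers (0.74, SE 0.17, limma adjusted p 0.891). The WT values of Dcn spanned less than 2 TPM. Lum, which encodes the related proteoglycan lumican, was at 1.87, 1.06 and 1.64 TPM in WT and 2.65, 4.21 and 3.50 TPM in GKO livers (0.82).

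The fibrillar collagen genes, the main product of scar-forming cells, were low in every liver. Col1a1 was at 0.808, 1.58 and 0.89 TPM in WT and 2.74, 4.22 and 1.90 TPM in GKO livers (0.89). Col3a1 was at 1.70, 1.18 and 1.70 TPM in WT and 5.26, 7.05 and 2.01 TPM in GKO livers (1.09). Col1a2 was at 0.853, 0.915 and 1.06 TPM in WT and 2.79, 2.93 and 1.55 TPM in GKO livers (0.79). GKO normal liver 2 was highest and GKO normal liver 3 lowest of the GKO livers for all 3 collagen genes. Among genes of the stellate cell itself, overlap was seen in some. Hand2, a transcription factor gene of stellate cells, was at 2.94, 4.45 and 4.12 TPM in WT and 6.66, 5.07 and 7.60 TPM in GKO livers (0.62), and Reln, which encodes the secreted protein reelin, differed by 0.59 without overlap. Lrat, whose enzyme esterifies vitamin A for storage, overlapped at 1.29, 1.68 and 1.34 TPM in WT and 2.24, 1.44 and 2.09 TPM in GKO livers (0.25). Acta2, which encodes the smooth muscle actin of contractile cells, ranged most, at 0.579, 0 and 5.70 TPM in WT and 3.02, 15.5 and 1.72 TPM in GKO livers with overlap (1.36).

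**Figure D2:**
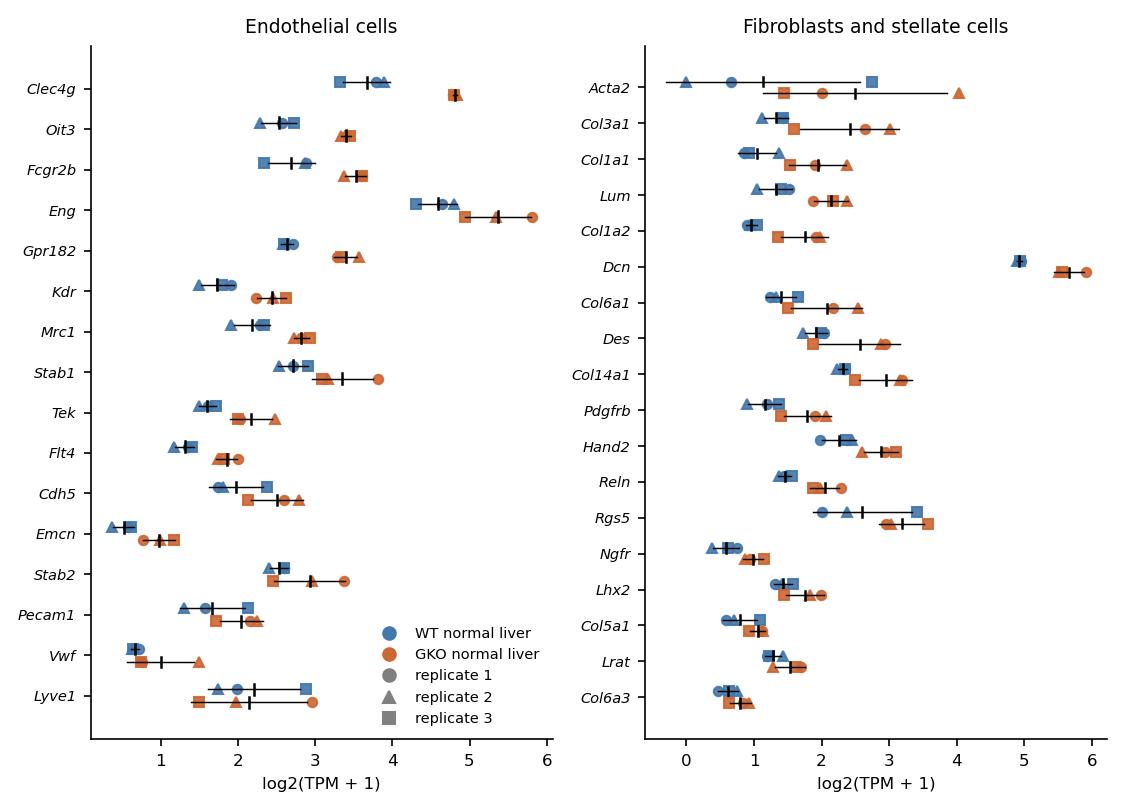
Levels of 16 endothelial genes and 18 fibroblast and stellate cell genes in each normal liver, on the log2(TPM + 1) scale. Blue points are WT and orange points GKO livers, 3 of each per gene with the replicate given by the shape. In 12 endothelial and 10 fibroblast or stellate genes all GKO points lie above all WT points, while Lyve1, Acta2 and Lrat overlap.

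Other cell types of the liver surface and ducts were represented by few genes. Both tested mesothelial markers were higher in GKO livers without overlap, Msln as given above and the uroplakin gene Upk3b at 0.209, 0 and 0 TPM in WT and 0.901, 1.23 and 0.932 TPM in GKO livers (0.92). Their WT means were below the filter of 0.5 TPM, so both were tested only through their GKO values. That both were higher was thus largely set by the filter, and the share over all genes was 6.23%. The 7 mesothelial genes of the list summed to 0.108 to 0.988 TPM in WT and 5.08 to 9.53 TPM in GKO livers. Of 7 tested bile duct genes, Spp1 and the keratin gene Krt19 were higher at an unadjusted p under 0.05, beside 3.17% over all genes, and the median was 0.27 (0.60 without GKO normal liver 1 and 0.18 without WT normal liver 1). Krt19 was at 0.397, 0.364 and 0.878 TPM in WT and 2.51, 5.89 and 1.65 TPM in GKO livers (1.39), and the epithelial adhesion gene Epcam differed by 0.48. How much tissue of the liver surface and ducts each sample held was not recorded in the labels, and its part in these differences was not tested.

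Immune cell lists held few genes without overlap. Of 12 tested Kupffer cell and macrophage genes, 1 was higher at an unadjusted p under 0.05, beside 3.17% over all genes, and the median was 0.39. The median was −0.022 without GKO normal liver 1 and 0.18 without WT normal liver 2, and the list's median deviation from the mean of the 6 livers was 0.86 in GKO normal liver 1 against −0.17 and −0.26 in GKO normal livers 2 and 3. That gene, Lyz2, which encodes a lysozyme of macrophages and neutrophils, was at 24.8, 20.7 and 24.7 TPM in WT and 40.8, 33.9 and 37.9 TPM in GKO livers (0.66, without overlap). Clec4f, a lectin gene that defines mouse Kupffer cells, was at 50.1, 36.7 and 43.3 TPM in WT and 91.0, 31.6 and 34.9 TPM in GKO livers and overlapped (0.11, or −0.36 without GKO normal liver 1). Summed macrophage markers overlapped as well, at 165 to 277 TPM in WT and 211 to 481 TPM in GKO livers. Of 9 tested T and NK cell genes, 0 were higher and 1 lower, beside 0.794% lower over all genes. That gene, Trbc2, which encodes a constant segment of the T cell receptor beta chain, was at 4.90, 5.04 and 8.17 TPM in WT and 4.42, 3.41 and 3.23 TPM in GKO livers (−0.56). Medians were 0.048 over 10 B and plasma cell genes and 0.39 over 4 neutrophil genes, with 0 members at an unadjusted p under 0.05. They ranged from −0.12 to 0.15 and from 0.23 to 0.70 when each liver was left out in turn.

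Hepatocyte markers had a median of 0.012, beside 0.064 over all genes. None of 10 was without overlap, which is near the share of 7.95% over all genes. Alb, the albumin gene, was at 31805, 39561 and 29049.8 TPM in WT and 22859.6, 33453 and 44073 TPM in GKO livers (−0.039), with a sign that turned without WT normal liver 2 (0.088) or GKO normal liver 1 (0.21). Tat, a tyrosine-degrading enzyme induced by glucocorticoids, had the largest difference of the list (−0.62), with overlap. Pancreas acinar genes, a sign of carried-over tissue, summed to 10.4 to 27.6 TPM in WT and 10.4 to 21.1 TPM in GKO livers, and those of adipose tissue and muscle to 3.93 to 6.16 and 1.33 to 10.3 TPM.

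**Figure D3:**
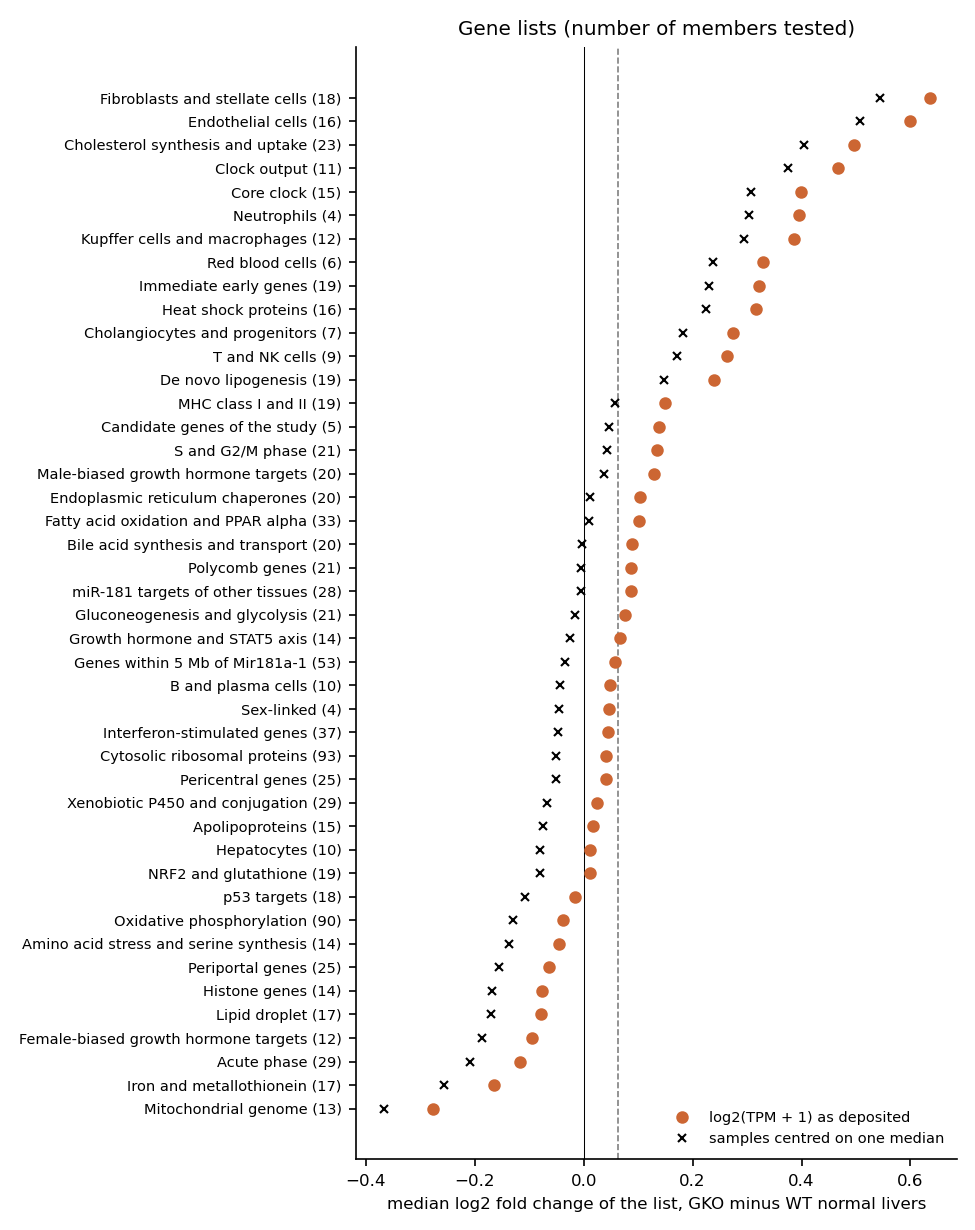
Median difference between GKO and WT normal livers over the members of each of 44 gene lists with at least 4 genes tested, in log2(TPM + 1). Dots are values as deposited, crosses are values after centring each liver on the same median, and the dashed line marks the median of 0.064 over all 13099 genes. Fibroblast and endothelial genes lie farthest to the right, at 0.64 and 0.60, followed by cholesterol genes at 0.50.

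Genes of cholesterol synthesis and uptake, which the factor SREBP2 switches on together, leaned to higher values in GKO livers. Of 23 tested, 5 were higher at an unadjusted p under 0.05 and 0 lower, 4 were without overlap, and 22 were above 0 with a median of 0.50. The shares over all genes were 3.17% higher at this p, 6.23% higher without overlap and 62.4% above 0. Fdft1, which encodes squalene synthase, was at 22.4, 27.6 and 22.4 TPM in WT and 44.7, 35.0 and 35.4 TPM in GKO livers (0.65, SE 0.18, limma adjusted p 0.999). Msmo1, a methylsterol oxidase, was at 6.57, 8.17 and 3.54 TPM in WT and 14.9, 10.8 and 10.5 TPM in GKO livers (0.92). Mvk, which encodes mevalonate kinase, was at 3.52, 2.61 and 2.72 TPM in WT and 5.76, 6.26 and 3.82 TPM in GKO livers (0.65), and Lss, which encodes lanosterol synthase, at 1.94, 1.96 and 1.33 TPM in WT and 3.30, 2.50 and 2.90 TPM in GKO livers (0.51). The GKO values of Fdft1, Msmo1, Mvk and Lss were each above all WT values. After median centring 6 genes were without overlap, beside 3.95% over all genes, and the median was 0.40, and without WT normal liver 2 and GKO normal liver 3 the median was 0.77.

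Genes of fatty acid synthesis make the acyl chains of liver lipids. Of 19 tested, 1 was higher at an unadjusted p under 0.05, 4 were higher without overlap, and the median was 0.24 (0.38 without GKO normal liver 3), beside 3.17% and 6.23% over all genes. The count of 1 was near the share over all genes. Aacs, which returns ketone bodies to lipid synthesis, was at 1.87, 2.60 and 1.04 TPM in WT and 12.5, 2.96 and 5.46 TPM in GKO livers (1.34). Scd1, the main stearoyl-CoA desaturase of liver, was at 1146, 799 and 688 TPM in WT and 1106, 921 and 502 TPM in GKO livers (−0.10), with a direction that turned when WT normal liver 1 (0.11) or GKO normal liver 3 (0.24) was left out. Of 33 genes of fatty acid oxidation and PPAR alpha, 2 were higher, at a median of 0.10 that ranged from 0.015 to 0.18 with each liver left out; the peroxisomal enzyme gene Ehhadh was at 271, 312 and 333 TPM in WT and 460.2, 410.0 and 398 TPM in GKO livers (0.47).

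Clock genes, whose levels change over the day, varied between livers of one genotype. Of 15 core clock genes, 2 were higher at an unadjusted p under 0.05 and 0 were without overlap, beside 3.17% and 6.23% over all genes, at a median of 0.40 (0.26 without WT normal liver 1). Of 11 clock output genes, 2 were higher and 1 lower at an unadjusted p under 0.05, beside 3.17% and 0.794% over all genes. Without overlap, 1 was higher and 1 lower, beside 6.23% and 1.73% over all genes. Their median was 0.47 and ranged from 0.30 without GKO normal liver 3 to 0.71 without GKO normal liver 2. Nfil3, a repressor that opposes Dbp, was at 24.6, 29.5 and 22.7 TPM in WT and 11.2, 19.96 and 8.29 TPM in GKO livers, without overlap (−0.99). Dbp was at 20.4, 36.2 and 25.9 TPM in WT and 59.8, 30.1 and 81.3 TPM in GKO livers (0.96), and the deubiquitinase gene Usp2 at 3.39, 3.81 and 4.33 TPM in WT and 19.98, 4.33 and 22.8 TPM in GKO livers (1.52). GKO normal livers 1 and 3 were above all WT livers for both Dbp and Usp2 and GKO normal liver 2 lay within the WT range, while for Nfil3 GKO normal liver 2 was the nearest to the WT livers. The hour of tissue collection is not given in the labels, so time of day and genotype cannot be told apart.

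Immediate early and heat shock genes respond quickly to handling and stress. Of 19 immediate early genes, 3 were higher at an unadjusted p under 0.05, beside 3.17% over all genes, and the median was 0.32. It was 0.10 without GKO normal liver 1, 0.18 without WT normal liver 1 and 0.48 without GKO normal liver 2. Jun, a subunit of the AP-1 factor, was at 9.05, 7.73 and 7.81 TPM in WT and 27.2, 20.5 and 13.2 TPM in GKO livers (1.16), and Klf2, a flow-responsive factor of endothelial cells, at 10.3, 12.98 and 14.5 TPM in WT and 19.3, 23.5 and 23.7 TPM in GKO livers (0.78). Of 16 heat shock genes, 1 was higher, at a median of 0.32 (0.14 without GKO normal liver 1 and 0.54 without GKO normal liver 3). Hspa1b, an inducible HSP70 gene, was at 2.05, 2.17 and 1.37 TPM in WT and 52.4, 12.6 and 2.18 TPM in GKO livers (2.22), highest in GKO normal liver 1 and near the WT range in GKO normal liver 3. Igfbp2, a growth hormone-repressed secreted binding protein, was at 665, 849 and 1267 TPM in WT and 1158, 1696 and 2335 TPM in GKO livers with overlap (0.89).

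The question of direct targets was approached through 3′ UTR sites for the shared seed. Among 10873 tested genes with an annotated 3′ UTR, 1989 held at least 1 match to TGAATGT, the complement of the seed, and 641 of these held the longer TGAATGTA. The median difference was 0.074 with a match, 0.082 with the longer match and 0.065 with no match. At an unadjusted p under 0.05, 40 genes with a match (2.01%) and 307 without (3.46%) were higher in GKO livers, beside 3.17% over all genes tested. Without overlap, 126 genes with a match (6.33%) and 627 without (7.06%) were higher. The share above 0 was 68.1% with a match and 63.7% without. Of 28 genes known as miR-181 targets in other tissues, 1 was higher at an unadjusted p under 0.05 and 3 without overlap, at a median of 0.086. That gene, Mcl1, an inhibitor of cell death, was at 39.4, 33.0 and 41.5 TPM in WT and 70.1, 53.2 and 44.8 TPM in GKO livers (0.53).

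Cbx7 (chr15:79915807-79971119, minus strand), a chromodomain subunit of Polycomb complexes, was the target that the study followed in tumours. The study narrowed known miR-181 targets to Cbx7 and 4 other candidates, using samples of this series and human liver cancer data. It also reported more CBX7 protein in GKO than in WT tumours, and in cultured tumour cells after induced deletion of the cluster. In its mice, vector-driven CBX7 reduced tumour size, and loss of Cbx7 restored tumour size in liver-specific knockouts of the cluster. The 3′ UTR of the transcript Cbx7-201, 2509 bases long, held 2 of the longer matches, shown in capitals with their flanks.
Cbx7 bases 2014 to 2021: ccctgcatattTGAATGTAgaggttgggtt
Cbx7 bases 2321 to 2328: ttcagacgaccTGAATGTAttgggaggaat
Cbx7 was at 1.66, 2.10 and 3.85 TPM in WT and 2.21, 1.82 and 4.89 TPM in GKO livers (2.54 ± 1.16 and 2.97 ± 1.67 TPM, SD, n = 3 each). The third liver of each genotype was highest, the groups overlapped, and the difference of 0.14 (SE 0.34, limma adjusted p 0.999) turned to −0.044 without WT normal liver 1 and to −0.19 without GKO normal liver 3. The SE of Cbx7 was larger than its difference. The other candidates overlapped as well. The clock-controlled factor gene Tef was at 15.1, 24.4 and 21.1 TPM in WT and 42.2, 18.8 and 37.2 TPM in GKO livers (0.62). Aldh3a2, a fatty aldehyde dehydrogenase, was at 193, 231 and 88.6 TPM in WT and 160.5, 163 and 166 TPM in GKO livers (0.041, or −0.050 with median centring), and Ndrg2 differed by 0.15. Of 21 Polycomb genes, 1 was higher at an unadjusted p under 0.05, Pcgf2 (0.47), beside 3.17% over all genes, and the median was 0.086.

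Genes beside the deleted cluster were examined because a knockout allele can carry flanking chromosome with it. Within 5 Mb of Mir181a-1, 53 genes were tested, with a median of 0.058, 4 higher at an unadjusted p under 0.05 and 0 lower, beside 3.17% higher and 0.794% lower over all genes. These 4, named after their values were seen, were Fmod (0.98), Prelp (0.56), Csrp1 (0.94) and the pseudogene Gm5834 (0.95). Fmod was at 0.445, 0.0681 and 0.522 TPM in WT and 1.18, 2.03 and 1.74 TPM in GKO livers. Its WT mean was below the filter of 0.5 TPM, so Fmod was tested only through its GKO values and its direction was largely set by the filter. Fmod and Prelp encode matrix proteoglycans of the same family as decorin and lumican. The nearest tested genes were Nek7, 0.516 Mb from the cluster (0.043), and the nuclear receptor gene Nr5a2 on the other side (0.012), both of which turned below 0 with median centring.

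Non-tumour livers of DEN-treated mice gave a second comparison of the genotypes in samples not used above. WT non-tumour liver 2 stood apart from the other 5 (r of 0.895 to 0.931, against 0.945 to 0.977 among them), so values are given with and without it. With all 6, limma called 0 of 13768 genes (0%), and at an unadjusted p under 0.05 270 genes (1.96%) were higher and 529 (3.84%) lower in GKO. Without overlap, 534 (3.88%) were higher and 1283 (9.32%) lower. The median over all 13768 genes was −0.147, and 33.5% were above 0. Without WT non-tumour liver 2, 0 genes were called, with 195 higher and 329 lower. The genotype effect in normal livers minus that in non-tumour livers was called for 0 of 13488 genes (0%, smallest adjusted p 0.724), with 691 (5.12%) higher and 139 (1.03%) lower at an unadjusted p under 0.05. Without WT non-tumour liver 2 these counts were 498 and 96. The higher count also moved to 415 without WT normal liver 1, 1198 without WT non-tumour liver 1, and 1496, 319 and 454 without GKO non-tumour livers 1, 2 and 3, and the lower count to 227 without GKO normal liver 1 and 233 without WT non-tumour liver 1.

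Of the 12 named genes with higher values, 6 were also above 0 in non-tumour livers and 1, Fam167b, did not overlap there. Over all genes there, 33.5% were above 0 and 3.88% were higher without overlap. Fam167b was at 15.5, 8.17 and 15.8 TPM in WT and 21.2, 27.8 and 25.4 TPM in GKO non-tumour livers, a difference of 0.91 (0.62 without WT non-tumour liver 2). The median over the 12 genes was 0.011 in non-tumour livers and −0.060 without WT non-tumour liver 2, beside −0.147 and −0.109 over all genes. For 8 of the 12 (11 without that liver) the effect in normal livers exceeded that in non-tumour livers at an unadjusted p under 0.05. The share over all genes was 5.12%, and without that liver the count was 498 of 13488. These 12 were chosen for their values in normal livers, so a smaller value elsewhere is no finding by itself. Mt1 was at 231, 31.3 and 2085 TPM in WT and 506, 122 and 1708 TPM in GKO non-tumour livers, so the genotypes overlapped and each spanned a wide range.

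Endothelial genes were again above 0 in most cases in non-tumour livers, with a median of 0.43 over 15 tested genes and 0.16 without WT non-tumour liver 2. Fibroblast and stellate cell genes had a median of 0.093, or −0.10 without that liver. The collagen genes differed in the other direction there: Col1a1 was at 4.86, 8.45 and 1.29 TPM in WT and 1.19, 1.46 and 0.435 TPM in GKO non-tumour livers. The effect on Col1a1 in normal livers exceeded that in non-tumour livers by 2.24 (1.79 without WT non-tumour liver 2), with a limma adjusted p of 0.724 (0.938).

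Genes of cholesterol, of fatty acid synthesis and of fatty acid oxidation had medians above 0 in normal and below 0 in non-tumour livers. The median over all genes turned in the same way, from 0.064 to −0.147 (−0.109 without WT non-tumour liver 2). The median difference in effect was 0.222 over all genes and 1.61, 0.80 and 0.49 over these lists. Without that liver it was 0.181 over all genes and 0.904, 0.783 and 0.461 over the lists. Lipid droplet genes had medians below 0 in both kinds of liver (−0.077 and −0.44). Cholesterol genes had a median of −1.04 in non-tumour livers (−0.43 without WT non-tumour liver 2), and for 14 of 24 (12 without it) the effect in normal livers was higher than in non-tumour livers at an unadjusted p under 0.05, beside 5.12% over all genes. Genes of fatty acid synthesis had a median of −0.61 (−0.55), with 11 of 19 (9) higher in the test of the difference. Aacs was at 9.41, 12.6 and 8.93 TPM in WT and 2.75, 2.32 and 4.31 TPM in GKO non-tumour livers, the reverse of its order in normal livers. The effect on Aacs differed by 2.82 between normal and non-tumour livers (SE 0.55, adjusted p 0.724; 2.68 without WT non-tumour liver 2), and no gene passed the adjusted test.

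**Figure D4:**
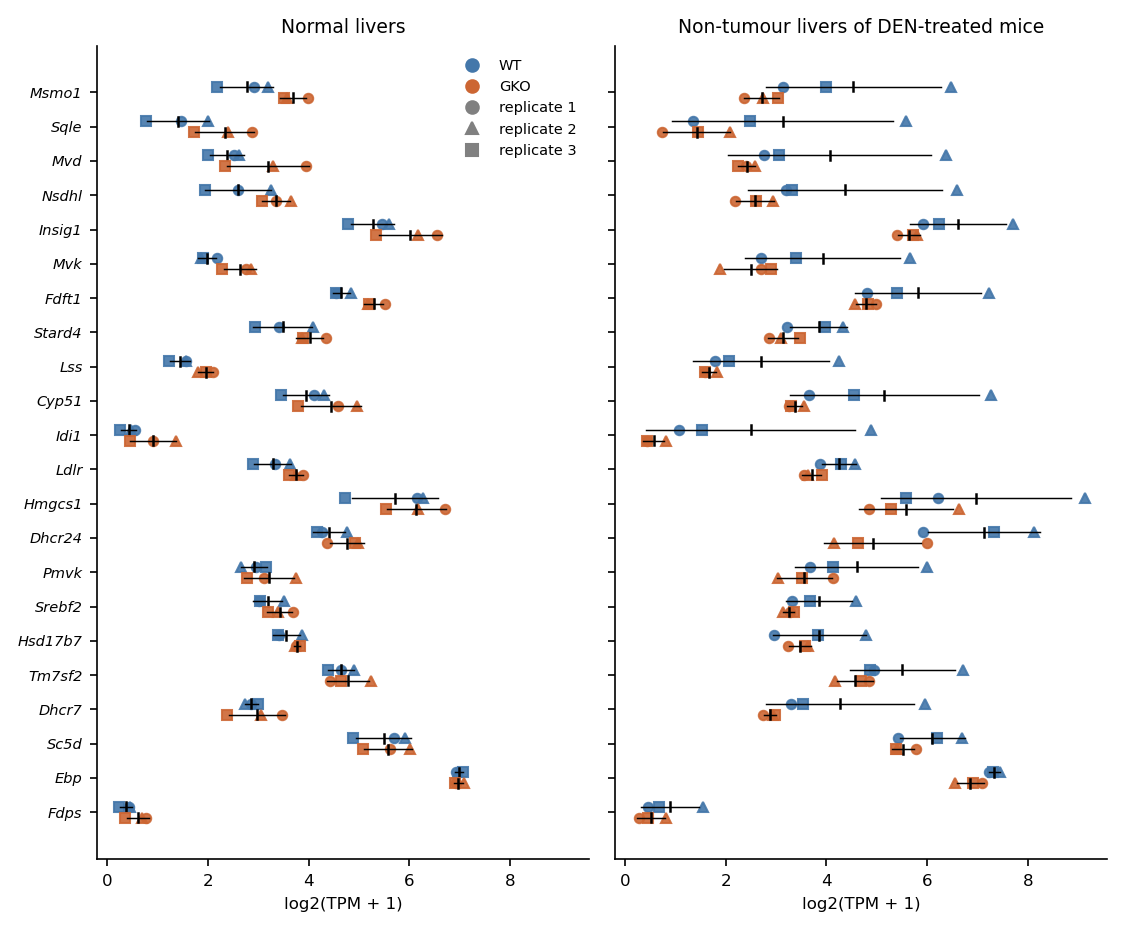
Levels of 22 of the 24 genes of cholesterol synthesis and uptake, Fdps below the filter in normal livers among them, in normal livers and in non-tumour livers of DEN-treated mice, on the log2(TPM + 1) scale. Blue points are WT and orange points GKO samples, with the shape giving the replicate. GKO points tend to lie to the right of WT points in normal livers (median 0.50 over all tested genes of the list) and to the left in non-tumour livers (median −1.04), where WT non-tumour liver 2 is the highest sample for Fdft1 and Msmo1. The medians over all genes were 0.064 in normal and −0.147 in non-tumour livers.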

How the data were processed

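RNA-seq was performed on 18 mouse samples in 6 groups of 3, and the 6 normal livers are described here. Per the labels, total RNA was extracted with Trizol from frozen tissue, and the submitters' processing notes name STAR 2.7.3a, featureCounts 2.0.0 and the mm10 build. The authors deposited 1 table of TPM per gene. How TPM were calculated, the gene annotation and strand settings are not given in the sources used here. Of 54838 gene identifiers, 54809 were in GENCODE release 21 of the mouse annotation, 101 symbols were listed more than once, and 0 columns lacked a sample. Depth and precision come from reads recovered from TPM and exonic length: 97.95 to 98.54% of low values were whole within 0.02 of a read, and limits drawn from a count of 0 cover counting error only.

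Differences were tested on log2(TPM + 1) with limma 3.58.1 (trended eBayes) in R 4.3.3, for genes averaging at least 0.5 TPM, with Benjamini-Hochberg adjustment and a threshold of 0.05. Tests were two-sided. The procedure was tested on simulated data. The tests were repeated with changes to the pseudocount (0.1), the filter (none, or at least 5 TPM on average), the scaling (centring on the median, or quantiles), the samples in the fit (all 18), the variance prior (no trend), a replicate block, voom on recovered reads, and each replicate left out. Added after the data were seen were protein-coding genes only, leaving out WT normal liver 2 with GKO normal liver 3, and leaving out WT non-tumour liver 2.

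The livers compared and the 47 gene lists were chosen with earlier results of these data known. Named genes were the 12 higher and 12 lower genes of smallest p without overlap, since none passed the adjusted p, up to 2 genes per list, the study's 5 candidates and the genes next to the cluster. Further list members are named as examples, chosen after their values were seen. The counts of the cholesterol list include 2 genes not reported here singly. Sites in 3′ UTRs were counted on the longest 3′ UTR per gene of the annotation. MicroRNA and promoter sequences are from RefSeq (GRCm38.p6).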

Additional observations from a re-analysis of the deposited data

How the results depend on the processing

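Genes called at the adjusted p in normal livers stayed at 0 under every alternative except protein-coding genes only, which called 2. Higher genes at an unadjusted p under 0.05 numbered 137 with a mean of at least 5 TPM, and lower genes 187 with no filter, 25 with at least 5 TPM, 210 with median centring, 198 with quantile normalization and 62 among protein-coding genes. Leaving out each replicate gave 256 to 674 higher and 96 to 167 lower genes.

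For the difference between normal and non-tumour livers, no filter called 2 genes, Eif3s6-ps2 and Mir221 with 0 to 6 reads per library, and leaving out each replicate called 0 to 1 (Gm24009, without GKO normal liver 3). No filter gave 299 lower genes at an unadjusted p, and at least 5 TPM gave 366 higher and 42 lower. Leaving out each replicate gave 319 to 1496 higher and 96 to 233 lower genes.

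Endothelial genes at an unadjusted p under 0.05 numbered 6 with at least 5 TPM, 2 with all 18 samples in 1 fit, 5 without WT normal liver 2 and GKO normal liver 3, and 7 to 12 with each replicate left out. Those without overlap numbered 6 with at least 5 TPM and 12 to 15 with each replicate left out, and the median was 0.78 both with a pseudocount of 0.1 and with at least 5 TPM. Fibroblast and stellate genes numbered 3 with at least 5 TPM, 4 with all 18 samples and 6 to 11 with each replicate left out, and those without overlap 3 with at least 5 TPM, 16 without WT normal liver 2 and GKO normal liver 3, and 10 to 15 with each replicate left out. The higher filter tests fewer genes, and leaving livers out can only keep or raise a count without overlap. Over all genes, leaving out each replicate gave 1141 to 2308 higher genes without overlap, against 816 with all 6 livers. Causes of the other shifts were not tested. The cholesterol median was 0.77 without WT normal liver 2 and GKO normal liver 3.

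Of the log2 differences of 73 genes, 65 kept their sign under every alternative. Many of these genes were named for groups that did not overlap, and such genes cannot change sign when a liver is left out. With median centring the sign turned for Aldh3a2 (−0.050), Nek7 (−0.049) and Nr5a2 (−0.080), with quantile normalization for Nek7 (−0.042) and Nr5a2 (−0.079), and with voom for Aldh3a2 (−0.055), Nek7 (−0.042) and Nr5a2 (−0.084). Without WT normal liver 2 and GKO normal liver 3 it turned for Lyve1 (0.032), Cbx7 (−0.26) and Scd1 (0.18). With each replicate left out, Alb ranged from −0.26 to 0.21, Aldh3a2 from −0.37 to 0.31, Cbx7 from −0.19 to 0.39, Clec4f from −0.36 to 0.39, Lyve1 from −0.47 to 0.27, Nek7 from −0.037 to 0.14, Nr5a2 from −0.13 to 0.15 and Scd1 from −0.33 to 0.24. Of 763 list medians under alternatives, 42 moved beyond the spread between replicates and 92, in 27 of 45 lists, changed sign. With a liver left out 21 lists changed sign, among them periportal (−0.36 to 0.23), interferon-stimulated (−0.21 to 0.22), macrophage (−0.022 to 0.54), iron (−0.31 to 0.12) and lipid droplet genes (−0.19 to 0.086). The smallest adjusted p lay between 0.0422 and 1 over the alternatives.

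Deviations from the group means correlated between WT and GKO livers at 0.196, −0.089 and 0.123 for replicate numbers 1, 2 and 3. For unlike numbers they correlated at −0.267 to 0.098. The deviations of a group sum to 0 for each gene, so with 3 livers per genotype these values cannot decide whether the numbers pair the samples. With the replicate number as a block, 0 genes were called, with 429 higher and 128 lower at an unadjusted p under 0.05. Depth limits genes of few reads, and 3 livers per genotype limit all tests.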

Other observations

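Other liver functions lay near the background of all genes. Medians were −0.077 over 17 lipid droplet genes, 0.089 over 20 bile acid genes, 0.076 over 21 genes of sugar metabolism, −0.044 over 14 genes of amino acid stress and 0.10 over 20 endoplasmic reticulum chaperones. Xenobiotic enzymes had a median of 0.024 over 29 genes, glutathione and NRF2 genes 0.012 over 19, and apolipoproteins 0.016 over 15. Periportal genes had a median of −0.064 over 25 genes and pericentral genes 0.041 over 25. In the pericentral list 3 genes were lower and 1 higher without overlap, beside 1.73% and 6.23% over all genes, and 0 were lower at an unadjusted p under 0.05. The 3 lower genes included Oat, which encodes ornithine aminotransferase, at 1180.0, 1379 and 1329 TPM in WT and 931, 1053 and 1032 TPM in GKO livers (−0.36). Targets of growth hormone gave 0.13 over 20 male-biased and −0.095 over 12 female-biased genes, and its signalling axis 0.067 over 14 genes.

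Acute phase genes had a median of −0.12 over 29 genes. At an unadjusted p under 0.05, 2 were higher and 1 lower, beside 3.17% and 0.794% over all genes. Serpina3n, a protease inhibitor of plasma, was at 90.0, 110.5 and 91.0 TPM in WT and 137, 132 and 119 TPM in GKO livers (0.41), and Apcs, which encodes serum amyloid P, at 172, 189 and 236 and 164, 149 and 99.6 TPM (−0.55). Medians were 0.045 over 37 interferon-stimulated genes, 0.15 over 19 MHC genes, 0.13 over 21 cell cycle genes, −0.016 over 18 p53 targets, 0.33 over 6 red cell genes, 0.047 over 4 sex-linked genes, 0.042 over 93 ribosomal protein genes and −0.037 over 90 genes of oxidative phosphorylation. Histone genes summed to 414.5 to 469 TPM in WT and 336 to 371 TPM in GKO livers without overlap, although their median was −0.076 over 14 genes. All 13 protein genes of the mitochondrial genome were below 0 (median −0.28) with overlap, and their summed level varied within each genotype, from 101684 to 164810 TPM in WT and 82398 to 167919 TPM in GKO livers. Medians by nuclear chromosome lay between 0.044 and 0.088.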
